A study of Mus musculus with 19 samples.

Results

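The genes described here are the kinases, transcription factors, inhibitors and receptors of the JAK-STAT pathway, 36 of the 20687 genes tested in sorted mouse mammary luminal cells (LCs). They were taken by name from the scanner files. The members are 4 JAK kinases (Jak1, Jak2, Jak3 and Tyk2), 5 STAT factors (Stat3, Stat4, Stat5a, Stat5b and Stat6), 8 SOCS inhibitors (Socs1 to Socs7 and Cish), 3 PIAS SUMO ligases (Pias1 to Pias3) and 4 tyrosine phosphatases (Ptpn1, Ptpn2, Ptpn6 and Ptpn11). The receptors are 5 of the gp130 family (Il6ra, Il6st, Lifr, Osmr and Lepr) and 7 of other cytokines (Il4ra, Il5ra, Il13ra1, Il10rb, Il15ra, Il2rg and Il7r). A gene was tested where the scanner software marked a probe of it as well above background on 4 or more of the 19 arrays. All 36 passed, although Stat4 was above background on 5 arrays and Il7r on 6.

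The arrays carried RNA of CD24+CD29lo LCs, 1 array for each mouse. All mice were C57Bl/6N females of 8 weeks that had been ovariectomized at 24 days of age, and 10 days later each received a pellet for 21 days. C451A-ERα mice carry, in every cell, a knock-in mutation of the palmitoylation site through which part of the estrogen receptor is held at the plasma membrane, and the wild-type mice were their littermates. The 4 groups were wild-type with E2 (0.01 mg over 60 days, n = 4: mice L67, L50, L72 and L52), C451A-ERα with E2 (n = 5: L4, L58, L27, L76 and L51), wild-type with E2 and 1.5 mg of progesterone (E2+Pg, n = 5: L57, L62, L44, L47 and L21) and C451A-ERα with E2+Pg (n = 5: L56, L18, L61, L53 and L63). No group went without E2, so a response to E2 itself was not measured.

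In this pathway a cytokine or hormone brings receptor chains together, the JAK kinases bound to them phosphorylate each other and the receptor, and a STAT factor docks, is phosphorylated and moves to the nucleus. SOCS proteins are made in response and shut the receptor down, while phosphatases and PIAS proteins limit the kinases and the STATs. In the mammary gland prolactin acts through JAK2 and STAT5A to form alveoli and induce milk genes, IL-4 and IL-13 act through STAT6 during luminal commitment, and LIF and oncostatin M act through gp130 and STAT3 during involution. RNA levels report neither the phosphorylation nor the activity of these proteins.

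STAT factors induce several SOCS genes through sites in their promoters, and stretches of 3 SOCS promoters are shown, those of Socs3 and Cish for a STAT pattern and that of Socs1 because Socs1 was the one member that passed the test. Sequences are from RefSeq (GRCm38.p6), where 29 of the 36 members had a window of 250 bases before to 50 bases after the transcript start. The pattern TTCNNNGAA, the letters of a STAT site, read the same on both strands and occurred in 8.3% of all 32851 windows. It was found in the windows of Cish, Il7r and Socs3. In Socs3 (chr11:117969502-117969531, minus strand) the match lay 154 bases before the start, and in Cish (chr9:107296654-107296683, plus strand) 1 match lay at the start and another 11 bases after it. Capitals mark the matches.
Socs3: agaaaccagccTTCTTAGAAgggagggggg
Cish: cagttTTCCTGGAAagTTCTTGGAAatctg
The window of Socs1 held no such pattern. After its values were seen, a second pattern, GAAA and GAAA with 2 bases between them as in sites of interferon regulatory factors, was searched on both strands as well. It occurred in 3.44% of all windows and overlapped itself in Socs1, with matches 83 and 77 bases before the start. Stat4 was the other member that held it. Capitals mark these matches in the 250 bases before the start of Socs1 (chr16:10785537-10785786, minus strand).
Socs1: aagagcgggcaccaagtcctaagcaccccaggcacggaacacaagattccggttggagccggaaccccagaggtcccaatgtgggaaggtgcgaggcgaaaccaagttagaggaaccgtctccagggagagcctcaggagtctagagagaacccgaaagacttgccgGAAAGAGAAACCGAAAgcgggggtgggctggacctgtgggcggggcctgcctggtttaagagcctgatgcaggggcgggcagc
The palindromic estrogen response element, GGTCA and TGACC with 3 bases between them (0.07% of windows), and the palindromic element of progesterone and glucocorticoid receptors (0.475%) were in no member's window. A pattern of TTC and GAA with 4 bases between them, the wider spacing that STAT6 accepts, was in 6.95% of windows and, among members, in that of Il5ra. A match of letters is a description and does not show binding.

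Every value below is the median signal of a gene's brightest probe, on a log2 scale after quantile normalization, so that a difference of 1 is 2-fold. A probe's level says nothing against that of another probe, and only the same gene is compared between mice. Genes were tested with limma over all 19 arrays, and a called gene is one with an adjusted p (Benjamini-Hochberg) under 0.05 together with a change of more than 1.5-fold. In bulk RNA, fewer cells of a type and less RNA per cell cannot be told apart. On the arrays, between 26478 and 31265 probes were well above background, and the arrays lay on 5 slides. Each slide held 1 mouse per group, but the third lacked the wild-type E2 mouse.

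Several mice stood apart within their group. Wild-type E2 mouse L72 lay with the C451A-ERα mice for several members, and its summed signal of 10 markers of hormone-sensing luminal cells was 154000, against 69100 to 85300 in the other wild-type E2 mice and 104000 to 168000 in C451A-ERα mice under E2. Mice L4, L27 and L18, all C451A-ERα, had the lowest weights that limma's array weights gave (0.247, 0.289 and 0.307). Their summed signal of 9 pan-luminal markers (543000, 629000 and 508000) lay below that of the other C451A-ERα mice (686000 to 784000), and so did that of 10 luminal progenitor markers (231000, 210000 and 306000, against 319000 to 506000). Some wild-type mice lay in the same range, with a pan-luminal sum of 581000 in L21 and progenitor sums of 279000 in L57, 284000 in L52 and 300000 in L44. L18 also had the lowest hormone-sensing sum of all mice (28900). Leukocytes and endothelial cells were gated out in the sort. In wild-type E2+Pg mouse L21 the 14 immune markers summed to 13800, against 3180 to 9510 in the other mice of its group. The part of these cell types in the results below was not tested. Of the 15 immune markers, Cd3g was not tested because it was above background on too few arrays, and in the other 3 groups the immune sum lay between 4300 and 6900. Mouse L72 was kept under its label, and its genotype was not checked here. Calls are given with and without these mice where they turn on them.

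Under E2, the members with the largest differences were lower in C451A-ERα than in wild-type LCs, but none was called. The kinase Jak2, the inhibitors Socs1, Socs2 and Cish and the receptors Il4ra and Il5ra had log2 differences of −0.83 to −2.93. The count of called members was 0 of 36 with limma, beside 0.029% of all genes (6 of 20687). At an unadjusted p under 0.05 there were 7 members, all lower, or 19.4% of the members beside 13.7% of all genes, and for the lower direction alone 19.4% beside 6.65%. The groups did not overlap for 3 members (8.33%, beside 3.56% of all genes). The median difference over the members was −0.1, and over all genes 0.02.

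Jak2, the kinase of the prolactin, growth hormone and erythropoietin receptors, was read at chromosome 19, 29386381 to 29386440 of mm9. Its log2 signal was 11.07, 11.17, 10.17 and 11.08 in wild-type L67, L50, L72 and L52. In C451A-ERα L4, L58, L27, L76 and L51 it was 10.11, 9.56, 9.90, 9.67 and 9.80. The groups did not overlap, and the nearest mice were L72 and L4. The difference was −1.06 (standard error 0.21, 2.09-fold), with an adjusted p of 0.105 from limma and an exact permutation p of 0.00794, the smallest that 4 mice against 5 can give. A second probe of Jak2 gave −0.74.

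Socs1, which binds activated JAK kinases and blocks them, was the other lower member whose groups did not overlap. Its signal was 8.93, 8.81, 8.11 and 9.01 in wild-type L67, L50, L72 and L52, and 6.98, 7.34, 7.07, 7.97 and 7.73 in C451A-ERα L4, L58, L27, L76 and L51. The difference was −1.30 (standard error 0.27, 2.45-fold, adjusted p = 0.105 from limma). Socs2, which restrains growth hormone and prolactin receptors, was at 10.92, 11.08 and 10.77 in wild-type mice L67, L50 and L52 but at 8.76 in L72. C451A-ERα L4, L58, L27, L76 and L51 had 9.73, 8.45, 8.95, 8.58 and 8.83 for Socs2, so that L72 lay among them. The difference of Socs2 was −1.48 (standard error 0.43, adjusted p = 0.142), and its 4 probes gave −0.95 to −1.48. Cish, an inhibitor that STAT5 induces and whose promoter stretch is shown above, also had L72 among the C451A-ERα mice. It was at 11.53, 12.05 and 11.54 in L67, L50 and L52, at 10.61 in L72, and at 10.59, 11.26, 10.47, 10.11 and 10.58 in the C451A-ERα mice in the order above. The difference of Cish was −0.83 (standard error 0.23, adjusted p = 0.131).

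Among the receptors, Il4ra, the chain shared by the IL-4 and IL-13 receptors, was at 10.91, 11.38, 9.47 and 10.73 in wild-type L67, L50, L72 and L52. It was at 9.68, 9.29, 8.87, 8.96 and 9.29 in C451A-ERα L4, L58, L27, L76 and L51. The difference was −1.40 (standard error 0.34, adjusted p = 0.120 from limma), and its second probe gave −0.60. Il5ra, the IL-5 binding chain, had the widest differences of the 36 members. Its signal was 10.73, 10.05, 7.26 and 10.56 in the wild-type mice in that order, and 8.98, 5.26, 6.72, 6.22 and 6.41 in the C451A-ERα mice, where L58 was not well above background. Wild-type mouse L72 and C451A-ERα mouse L4 exchanged places. The difference of Il5ra was −2.93 (standard error 0.81, adjusted p = 0.125), and its second probe gave −2.20. The 14 immune markers did not separate these groups, with summed signals of 5140 to 6600 in wild-type and 5400 to 6420 in C451A-ERα mice. The 10 hormone-sensing markers summed to 69100 to 85300 in L67, L50 and L52 and to 154000 in L72. In C451A-ERα mice they summed to 104000 to 168000. At an unadjusted p under 0.05 from limma, 3 of these 10 were higher in C451A-ERα LCs. Of the 10 progenitor markers, 3 were lower and 1 higher. The part of this shift in the members was not tested.

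**Figure D1:**
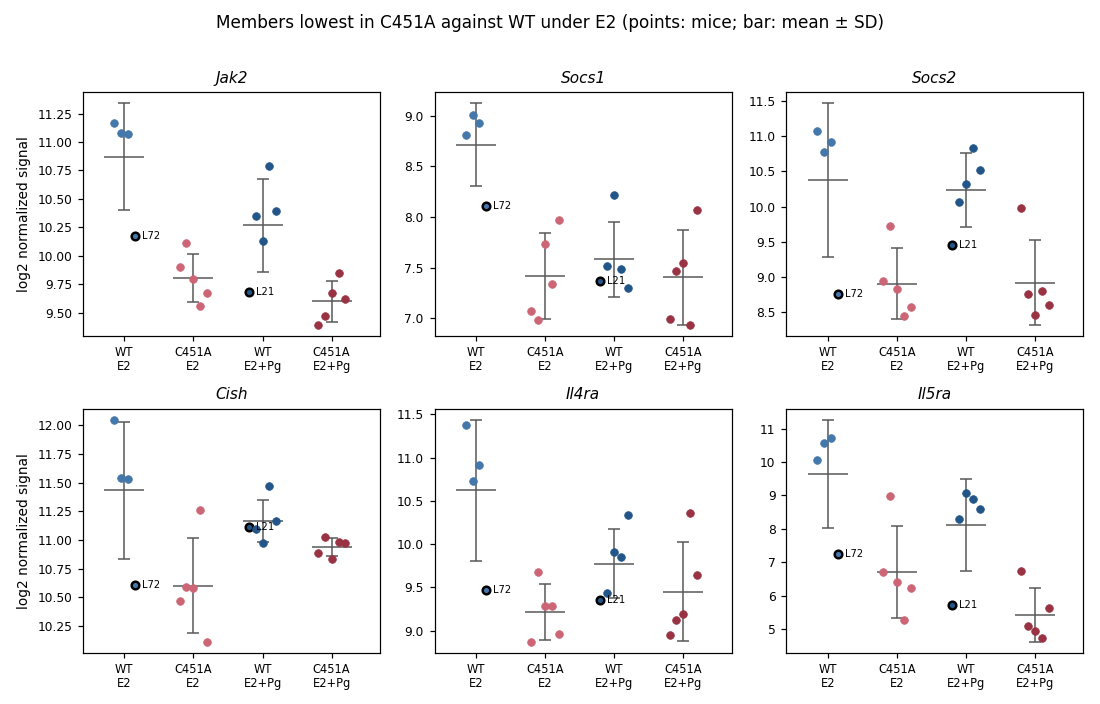
Log2 normalized signal of Jak2, Socs1, Socs2, Cish, Il4ra and Il5ra in the 4 groups. Each point is a mouse, and the bars give the mean ± SD (n = 4 or 5). Wild-type mice L72 (E2) and L21 (E2+Pg) are ringed, and L72 is the lowest wild-type E2 mouse in each panel.

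Leaving out single mice moved these results. Without wild-type mouse L72 the same 6 members, Cish, Il4ra, Il5ra, Jak2, Socs1 and Socs2, were called lower under E2, 16.7% of the members beside 3.1% of all genes called lower. Their differences were then −1.1 (Cish), −1.79 (Il4ra), −3.73 (Il5ra), −1.30 (Jak2), −1.50 (Socs1) and −2.02 (Socs2), at adjusted p-values of 0.000892 to 0.00793. With 1 other mouse left out, no member was called. Without L4, L27 and L18, Il5ra, Jak2 and Stat5a were called lower (8.33% of the members, beside 1.06% of all genes called lower and 1.49% in either direction), and Socs2, Il4ra and Socs1 were at adjusted p-values of 0.0532, 0.0651 and 0.0678. With arrays weighted by their fit, 10 members were called, 27.8% beside 10.8% of all genes. The authors' value table called Il4ra, Jak2 and Socs1, beside 0.676% of all genes.

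The 3 other kinases differed less under E2. Tyk2, the kinase of interferon and IL-12 family receptors, had a difference of −0.48 (standard error 0.18, adjusted p = 0.247). Jak1, which serves gp130 and interferon receptors, had −0.03 (95% interval −0.39 to 0.33), and Jak3, the kinase of the common gamma chain, 0.29. Of the STATs, Stat5a had −0.45 (standard error 0.26, adjusted p = 0.470, and −0.80 without L4, L27 and L18), and Stat3, Stat4, Stat5b and Stat6 had 0.04 to 0.09. The second probe of Stat5a gave −0.50 (standard error 0.19, unadjusted p = 0.0147 and adjusted p = 0.264 from limma). The PIAS ligases lay between −0.13 and 0.29 and the phosphatases between −0.1 and 0.25. Pias2 was the third member whose groups did not overlap, at 10.58 to 10.74 in wild-type and 10.75 to 11.15 in C451A-ERα mice, with a difference of 0.22 and an adjusted p of 0.440.

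With progesterone added, the comparison of genotypes again called 0 of 36 members with limma, beside 0.00483% of all genes (1 of 20687). At an unadjusted p under 0.05 there were 8 members, 22.2% beside 18.3% of all genes, of which 6 were lower and 2 higher in C451A-ERα LCs (10.2% and 8.05% of all genes). The 6 were Il5ra, Socs2, Jak2, Il2rg, Pias3 and Tyk2, and the 2 were Socs4 and Stat6. Groups that did not overlap were found for 0 members, beside 2.59% of all genes. The median difference was 0.11 over the members and −0.02 over all genes.

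Il5ra, Socs2 and Jak2 had the largest of these differences on the lower side. Il5ra was at 8.88, 8.61, 8.29, 9.08 and 5.73 in wild-type E2+Pg mice L57, L62, L44, L47 and L21. In C451A-ERα L56, L18, L61, L53 and L63 it was at 4.94, 6.75, 4.73, 5.08 and 5.64, and only L18 and L63 were well above background. The wild-type mice lay higher apart from L21. With 3 of 5 C451A-ERα mice not well above background, the size of the difference is partly set by that background, and it was −2.69 (standard error 0.76, adjusted p = 0.133 from limma). Socs2 was at 10.84, 10.52, 10.06, 10.32 and 9.46 in the wild-type mice and at 8.47, 9.98, 8.81, 8.76 and 8.60 in the C451A-ERα mice in the same orders. L21 and L18 are the pair that overlapped, and the difference was −1.32 (standard error 0.40, adjusted p = 0.157). Jak2 was at 10.79, 10.39, 10.35, 10.13 and 9.68 in wild-type and at 9.67, 9.39, 9.85, 9.47 and 9.62 in C451A-ERα mice. Only L21 reached the C451A-ERα range, and the difference of Jak2 was −0.67 (standard error 0.20, adjusted p = 0.157). These 3 genes were lower in the C451A-ERα mouse on 5 of 5 slides.

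Stat6, the factor of IL-4 and IL-13, had the highest positive difference after Osmr. It was at 9.39, 9.97, 9.77, 9.91 and 10.00 in wild-type E2+Pg mice L57, L62, L44, L47 and L21 and at 10.49, 9.73, 10.82, 10.14 and 11.04 in C451A-ERα L56, L18, L61, L53 and L63. All C451A-ERα mice but L18 lay above the wild-type mice, and the difference was 0.63 (standard error 0.23, adjusted p = 0.205 from limma). For Socs4, a SOCS box protein, the difference was 0.45 (standard error 0.15, adjusted p = 0.174) on its brightest probe, but 0.07 and 0.08 on its other 2 probes. Socs1, Cish and Il4ra, among the 6 members named under E2, had −0.18, −0.22 and −0.32 under E2+Pg. Socs3, given with progesterone below, had 0.59 (standard error 0.36, adjusted p = 0.352).

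Single mice moved this comparison too. Without C451A-ERα mouse L18, Il5ra, Socs2 and Stat6 were called (8.33% of the members, beside 5.21% of all genes), with Il5ra well above background in 1 C451A-ERα mouse. Without wild-type mouse L21, Il5ra and Jak2 were called (5.56%, beside 1.1% of all genes). Without L4, L27 and L18, Il5ra (−3.02) and Socs2 (−1.58) were called lower and Osmr (1.1), Socs5 (0.69) and Stat6 (0.81) higher, at adjusted p-values of 0.0032 to 0.012. These 5 members are 13.9% of the 36, beside 14.5% of all genes. Array weights also called 5, Il5ra, Jak2, Socs2, Socs5 and Stat6, beside 12.5% of all genes.

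**Figure D2:**
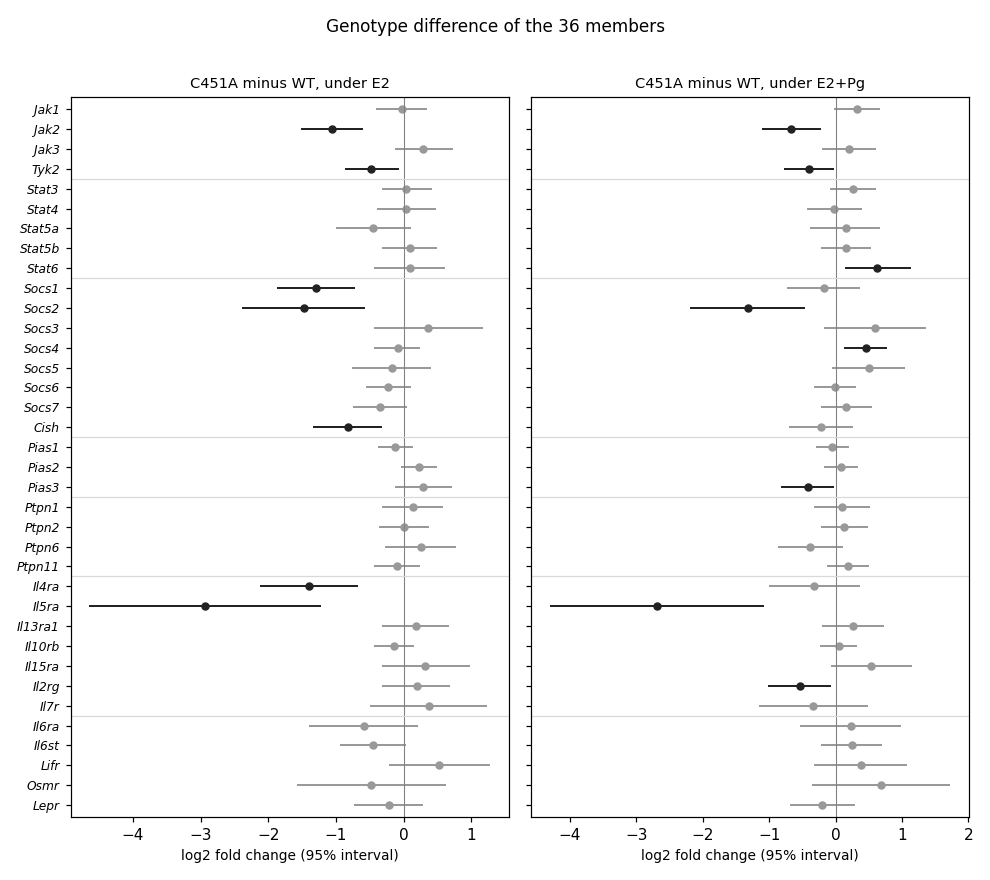
Difference of C451A-ERα minus wild-type LCs under E2 (left) and E2+Pg (right) for the 36 members, as log2 fold changes with 95% intervals from limma, grouped by role between grey lines. Black marks an unadjusted p under 0.05 and grey the rest. No member was called, and Il5ra, Socs2 and Jak2 lie on the lower side in both panels (−2.93, −1.48 and −1.06 under E2).

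Progesterone was next compared within each genotype. In wild-type LCs Socs1 was lower with E2+Pg than with E2 alone, and it was the one member called (1 of 36, or 2.78%, beside 1.35% of all genes, 280 of 20687, and 0.759% called lower). Its signal was 8.93, 8.81, 8.11 and 9.01 with E2 (L67, L50, L72 and L52) and 7.49, 7.30, 7.52, 8.22 and 7.37 with E2+Pg (L57, L62, L44, L47 and L21). Mice L47 and L72 were the pair that overlapped. Socs1 fell by 1.13 on the log2 scale (standard error 0.27, 2.19-fold, adjusted p = 0.0417 from limma, exact permutation p = 0.0238), and it was lower on 3 of 4 slides. The call did not hold when any 1 of L67, L50, L52, L57, L62, L44, L21, L56, L53 or L51 was left out (adjusted p of 0.0514 to 0.158), nor with the slide as a fixed block (0.102) or random block (0.0608), the processed signal (0.0822) or no filter on dim probes (0.0606). Between these wild-type groups the summed signal of the 10 hormone-sensing markers also did not overlap, at 69100 to 154000 with E2 and 35300 to 66300 with E2+Pg, and 7 of the 10 were lower at an unadjusted p under 0.05 (median −0.72). The part of this shift in Socs1, Stat5a and the other members was not tested. In C451A-ERα LCs the same comparison of Socs1 gave −0.01 (95% interval −0.54 to 0.52), with 6.98 to 7.97 under E2 and 6.93 to 8.07 under E2+Pg.

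At an unadjusted p under 0.05 there were 6 members in wild-type LCs, 16.7% beside 16.3% of all genes. All 6 were lower with E2+Pg, and for that direction the share of all genes was 6.88%. The 5 besides Socs1 were Stat5a, Jak2, Socs4, Il4ra and Socs3. Stat5a, the factor through which prolactin acts, was at 12.08, 12.14, 12.22 and 12.22 with E2 in L67, L50, L72 and L52 and at 11.47, 11.41, 11.43, 11.03 and 11.54 with E2+Pg in L57, L62, L44, L47 and L21. The lowest E2 mouse (12.08) lay above the highest E2+Pg mouse (11.54). The difference was −0.79 (standard error 0.26, adjusted p = 0.13 from limma), and the second probe of Stat5a gave −0.33. On that second probe the groups overlapped, with L47 (10.41) above E2 mice L72 (10.36) and L52 (10.28). The standard error pools all 4 groups, and in C451A-ERα mice the brightest probe of Stat5a spread from 10.90 to 12.37. Fitted on the wild-type groups alone, Stat5a was called along with Socs1 (5.56% of the members, beside 1.55% of all genes), and likewise without L4, L27 and L18 (beside 3.89%). Array weights called 5 members (Il4ra, Il5ra, Jak2, Socs1 and Stat5a), beside 9.07% of all genes. On their brightest probes Osmr and Il6st also did not overlap between the wild-type groups, which makes 3 members (8.33%) beside 8.64% of all genes. The other probes of Osmr overlapped, with E2+Pg mice L57 on A_55_P2721494 (9.6) and L62 on A_66_P124309 (8.24) within the E2 range.

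Jak2, with the values given above, had a progesterone difference of −0.60 in wild-type LCs (standard error 0.21, adjusted p = 0.165 from limma). Il4ra was at 10.91, 11.38, 9.47 and 10.73 with E2 and at 9.85, 10.34, 9.43, 9.91 and 9.35 with E2+Pg, a difference of −0.85 (standard error 0.34, adjusted p = 0.223). Without L72, whose Il4ra lay among the E2+Pg mice, both Jak2 (−0.84) and Il4ra (−1.23) were called along with Socs1, 8.33% of the members beside 2.79% of all genes. Il5ra had −1.53 (95% interval −3.22 to 0.16). Socs3, the inhibitor that gp130 signaling induces and whose promoter stretch is shown above, was at 12.83, 13.09, 14.00 and 13.21 with E2 and at 12.39, 12.59, 11.73, 11.81 and 13.66 with E2+Pg, a difference of −0.84 (standard error 0.38, adjusted p = 0.280). In these wild-type E2+Pg mice the 16 immediate early and dissociation genes summed to 283000 in L57, 264000 in L62, 189000 in L44, 173000 in L47 and 441000 in L21, against 343000 to 430000 in wild-type E2 mice. L44 and L47 were the lowest and L21 the highest for both. In the C451A-ERα E2+Pg mice L56, L18, L61, L53 and L63, Socs3 was at 13.52, 12.50, 12.40, 13.12 and 13.58 and these genes summed to 438000, 430000, 292000, 351000 and 342000, so that L18 had a high sum beside a low Socs3. Under E2+Pg 10 of the 16 had an unadjusted p under 0.05 and were higher in C451A-ERα than in wild-type mice. The C451A-ERα E2 mice had Socs3 at 13.17, 13.93, 14.38, 13.41 and 13.29, and progesterone gave −0.61 there (adjusted p = 0.372). The part of the immediate early genes in the differences of Socs3 was not tested.

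In C451A-ERα LCs progesterone called 0 of 36 members with limma, beside 2.49% of all genes (516 of 20687). At an unadjusted p under 0.05 there were 7 members (19.4%, beside 18.4% of all genes), with Ptpn6, Il2rg and Pias3 on the lower side (9.79% of all genes) and Socs5, Socs7, Stat3 and Stat6 on the higher side (8.63%). Socs5, a SOCS box protein, came nearest to a call. It was at 10.83, 11.79, 10.41, 11.52 and 11.48 with E2 in L4, L58, L27, L76 and L51 and at 12.43, 11.37, 12.43, 12.35 and 12.13 with E2+Pg in L56, L18, L61, L53 and L63. All E2+Pg mice but L18 lay above the E2 mice. The difference of Socs5 was 0.94 (standard error 0.26, 1.91-fold, adjusted p = 0.0536), with an adjusted p of 0.0129 to 0.157 over the alternative processings. Array weights called it, beside 3.38% of all genes, and so did leaving out L58 (beside 3.5% of all genes) or L18 (4.67%). Without wild-type mouse L21, Il2rg and Ptpn6 were called in place of it, beside 2.77% of all genes. Without L4, L27 and L18 it was 0.74 with an adjusted p of 0.0977, and no member was called, beside 0.532% of all genes.

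Ptpn6, the phosphatase SHP1, was the member whose groups did not overlap in this comparison (2.78%, beside 5.12% of all genes). It was at 9.69, 8.89, 9.80, 8.86 and 8.99 in the C451A-ERα E2 mice in the order above and at 8.34, 8.76, 8.43, 8.71 and 8.35 in the E2+Pg mice. The difference was −0.73 (standard error 0.23, adjusted p = 0.0867 from limma). Il2rg, the common gamma chain, was at 8.11, 7.51, 8.23, 8.04 and 7.75 with E2 and at 7.55, 7.14, 7.29, 7.36 and 7.09 with E2+Pg, a difference of −0.64 (standard error 0.22, adjusted p = 0.113). L56 was the E2+Pg mouse that reached the E2 range for Il2rg. Pias3, a SUMO ligase that binds STAT3, was at 6.71, 6.31, 7.41, 6.61 and 6.83 with E2 and at 6.10, 6.41, 6.35, 6.43 and 5.95 with E2+Pg, a difference of −0.53 (adjusted p = 0.120). The 14 immune markers summed to 5400 to 6420 with E2 and to 4300 to 6900 with E2+Pg. Il5ra had −1.29 (adjusted p = 0.383), with the values given above. Stat3, Stat6 and Socs7 had differences of 0.39, 0.53 and 0.50, with adjusted p-values of 0.192, 0.225 and 0.124.

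**Figure D3:**
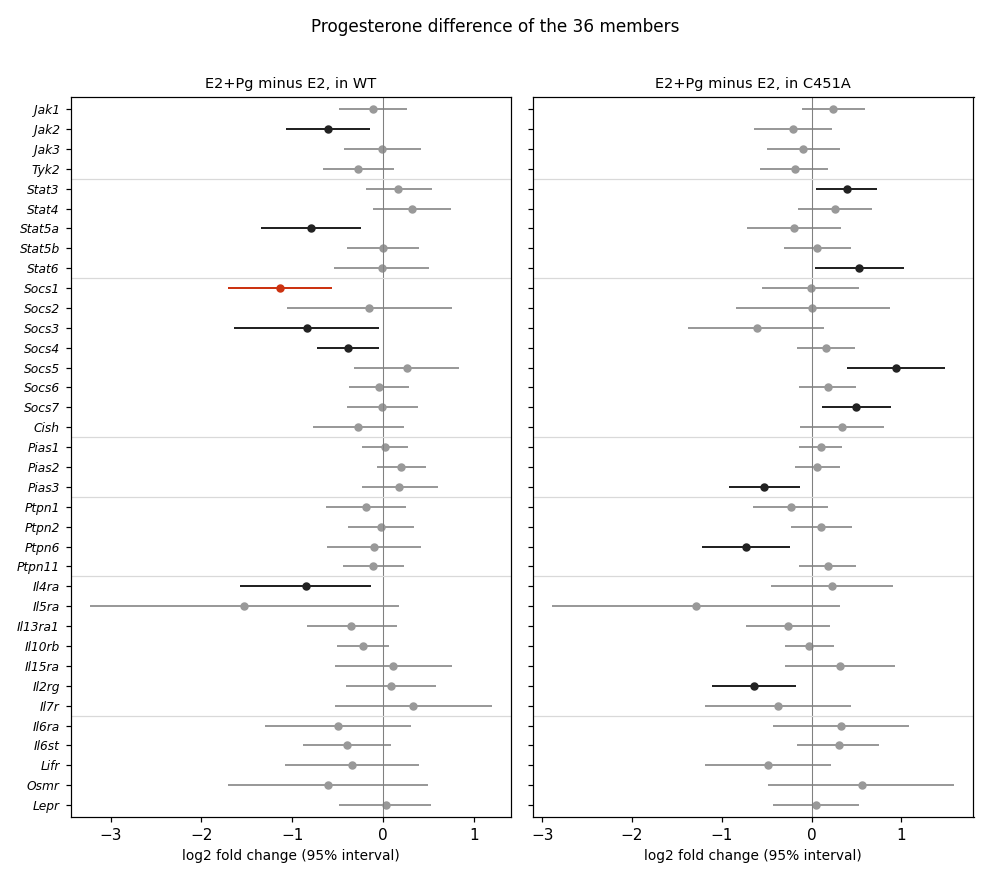
Difference of E2+Pg minus E2 in wild-type (left) and C451A-ERα (right) LCs for the 36 members, as log2 fold changes with 95% intervals from limma, grouped by role between grey lines. Red marks the called member, Socs1 in wild-type LCs (−1.13), black an unadjusted p under 0.05 and grey the rest.

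Whether progesterone acted differently in the genotypes was tested with the interaction term, which called 0 members and 0% of all genes with limma. At an unadjusted p under 0.05 there were 6 members (16.7%, beside 9.31% of all genes). Socs1 (1.12, standard error 0.37), Il4ra (1.08), Il6st (0.70) and Socs4 (0.55) were on the positive side (3.85% of all genes) and Il2rg (−0.73) and Pias3 (−0.71) on the negative side (5.45%), all at an adjusted p of 0.476. Osmr had the largest interaction of the members (1.16) and Il6ra had 0.82, both with wider errors (adjusted p = 0.478). On the brightest probes all 8 SOCS genes had a positive interaction, from 0.16 to 1.12, beside a median of −0.04 and a share of 54.4% negative over all genes. The other 2 probes of Socs4 had −0.18 and −0.03. The 2 progesterone comparisons and the 2 genotype comparisons use the same mice, so their values are not separate evidence.

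Osmr and Il6ra, receptors of the gp130 family, spread widely among the C451A-ERα mice of each group. Osmr, which binds oncostatin M, was at 10.77, 13.19, 10.69, 12.91 and 12.79 in C451A-ERα E2 mice L4, L58, L27, L76 and L51. With E2+Pg it was at 13.26, 10.95, 13.03, 12.85 and 13.05 in L56, L18, L61, L53 and L63. In wild-type mice it was at 12.48, 12.80, 12.52 and 12.38 with E2 and at 12.19, 12.33, 12.02, 11.92 and 11.26 with E2+Pg. On this brightest probe L4, L27 and L18 thus lay below every other mouse, and the other 7 C451A-ERα mice lay at 12.79 or above. On A_55_P2721494 wild-type mouse L47 (6.76) was the lowest of all mice, and wild-type L44 was level with L27 (7.6). On A_66_P124309 wild-type L21 was level with L4 (7.18). Among the C451A-ERα mice the 3 were the lowest on both of these probes. Over all mice the genotype difference of Osmr was −0.48 under E2 and 0.68 under E2+Pg, with adjusted p-values of 0.733 and 0.432. Its other probes gave −0.44 and −0.34 under E2. Under E2+Pg they gave 1.62 and 0.76 (adjusted p = 0.228 and 0.272 from limma). Without the 3 mice the brightest probe gave 0.42 and 1.1, the latter called. The progesterone difference of Osmr was −0.60 in wild-type LCs on the brightest probe and −1.59 and −0.66 on its other probes.

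Il6ra, the IL-6 binding chain, was at 10.18, 11.40, 10.47, 11.62 and 11.57 in the C451A-ERα E2 mice in the same order and at 11.82, 10.27, 11.11, 11.30 and 12.37 in the C451A-ERα E2+Pg mice. It was at 11.90, 11.48, 11.51 and 11.68 in wild-type mice with E2 and at 11.67, 11.66, 10.85, 11.04 and 10.53 with E2+Pg, so that L4, L27 and L18 were again the lowest. Its differences were −0.59, 0.23, −0.49 and 0.33 in the 4 comparisons, none with an unadjusted p under 0.05. Without L4, L27 and L18 the genotype differences of Il6ra were −0.11 and 0.50. Il6st, gp130 itself, was lowest in L27 (9.31) and L4 (9.55), with L21 (9.64) and L18 (9.76) next. Between the wild-type groups it did not overlap, at 10.27 to 10.61 with E2 and 9.64 to 10.21 with E2+Pg (difference −0.40, adjusted p = 0.386 from limma). Its genotype difference under E2 was −0.45, and −0.08 without those 3 mice. Lifr, the LIF receptor, had differences of 0.52, 0.38, −0.34 and −0.49 in the same order of comparisons. In the same 3 mice the brightest probe of Stat5a was the highest of the C451A-ERα mice (12.11 in L4, 12.37 in L27 and 12.34 in L18, against 10.90 to 11.72 in the others). On the second probe of Stat5a L4 was again the highest (10.62), but L27 (9.96) and L18 (9.98) lay below L61 (10.15). Socs5 was the lowest of the C451A-ERα mice in L4, L27 and L18 (10.83, 10.41 and 11.37, against 11.48 to 12.43). L4, L27 and L18 had pan-luminal and progenitor marker sums that were low among the C451A-ERα mice, as given above, and the part of these sums was not tested.

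**Figure D4:**
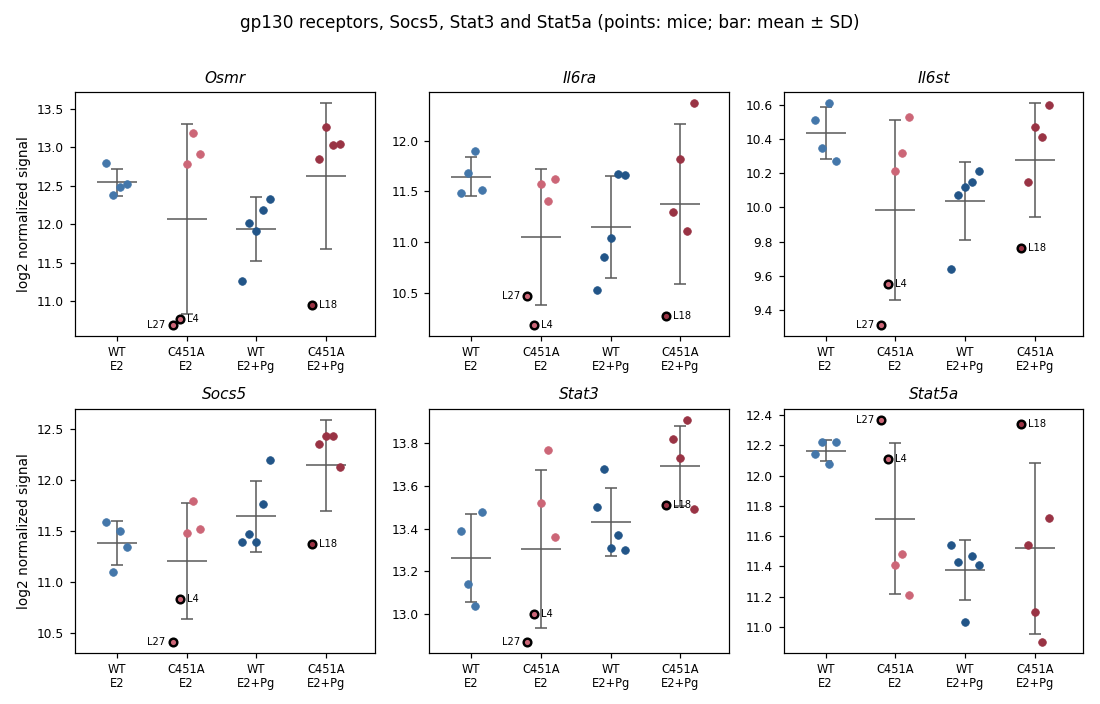
Log2 normalized signal of Osmr, Il6ra, Il6st, Socs5, Stat3 and Stat5a in the 4 groups. Each point is a mouse, and the bars give the mean ± SD (n = 4 or 5). C451A-ERα mice L4, L27 and L18 are ringed. On the brightest probe, the one shown, their Osmr (10.69 to 10.95) lies below that of every other mouse.

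Probes of the leptin receptor, Lepr, disagreed. The brightest, A_55_P2177910 (chromosome 4, 101452666 to 101452725 of mm9), gave differences of −0.22 and −0.20 between genotypes and of 0.03 and 0.05 with progesterone. Under E2 its genotype difference was −0.52 without L4, L27 and L18 (adjusted p = 0.0799). Probe A_55_P2506350 (101486122 to 101486181) was at 6.30, 5.97, 7.64 and 6.60 in wild-type E2 mice L67, L50, L72 and L52. It was at 7.89 to 8.2 in C451A-ERα mice with E2, at 7.79 to 8.52 in wild-type mice with E2+Pg and at 7.64 to 8.41 in C451A-ERα mice with E2+Pg. The wild-type E2 mice other than L72 thus lay below all the rest. With every probe tested on its own, A_55_P2506350 was called higher with E2+Pg in wild-type LCs (1.65, standard error 0.25, adjusted p = 0.00637 from limma). So were A_55_P2177911 (1.43, adjusted p = 0.0254) and A_55_P2621147 (0.62, adjusted p = 0.042), the last of which was above background in 1 of the 4 wild-type E2 mice, and in C451A-ERα LCs these 3 probes had −0.09, −0.11 and −0.16. Between genotypes under E2, A_55_P2506350 had 1.44 (adjusted p = 0.102), and its interaction was −1.74 (adjusted p = 0.466). Without L72 these were 1.78 (adjusted p = 0.000108) and −2.08 (0.00361), and the wild-type progesterone difference was 1.99 (7.31e-05). This test of single probes was added after the values of Lepr were seen, and averaged over its probes Lepr was called as well.

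**Figure D5:**
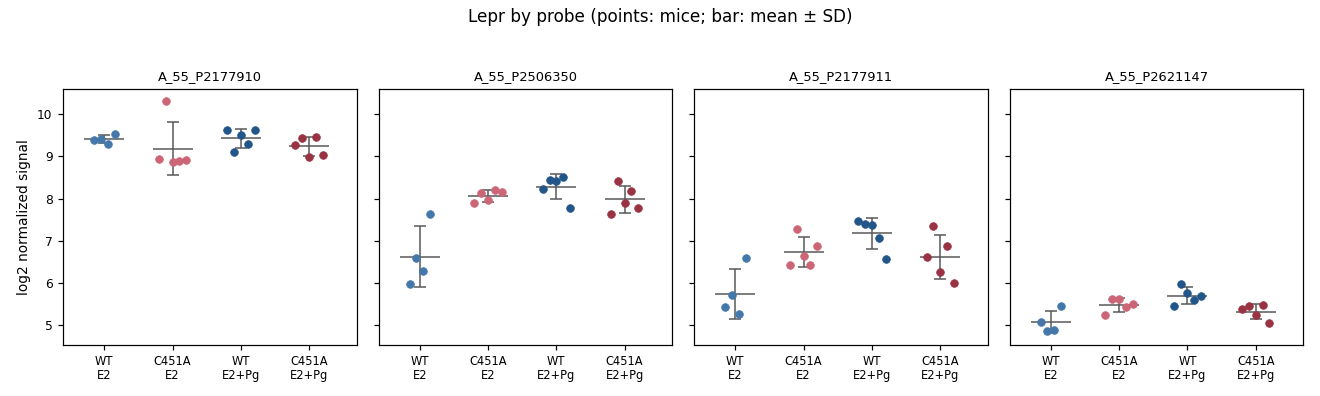
Log2 normalized signal of the 4 Lepr probes that were well above background on at least 4 arrays, by group. Each point is a mouse, and the bars give the mean ± SD (n = 4 or 5). The first probe lies at 9.30 to 9.54 in wild-type E2 mice. In C451A-ERα E2 mice it lies at 8.87 to 8.93 apart from L4 (10.31). The second probe lies at 5.97 to 7.64 in wild-type E2 mice and at 7.64 or above in the other groups.

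Over the 4 comparisons of 2 groups, on brightest probes, Jak1 lay between −0.11 and 0.32, Jak3 between −0.1 and 0.29 and Pias2 between 0.06 and 0.22. Pias2 probe A_52_P534203 gave 0.53 with progesterone in wild-type LCs (unadjusted p = 0.00203, adjusted p = 0.0867 from limma). Pias2 probe A_55_P2138150 gave 0.19 there. Jak3 probe A_51_P355360 gave 0.48 and 0.51 between genotypes and −0.45 and −0.42 with progesterone. Jak3 probe A_55_P2728208 lay between −0.17 and 0.24. The members not described so far had differences within 0.53 of 0 in all 4 comparisons on their brightest probes. Stat5b, the close homologue of Stat5a, lay between 0.00 and 0.15, Socs6 between −0.23 and 0.18, and Pias1 between −0.13 and 0.10. Among the phosphatases Ptpn1 (PTP1B) lay between −0.23 and 0.13, Ptpn2 (TC-PTP) between −0.02 and 0.13 and Ptpn11 (SHP2) between −0.11 and 0.18. Among the receptors Il10rb, shared by IL-10 and IL-22, lay between −0.22 and 0.05, Il13ra1 between −0.35 and 0.26 and Il15ra between 0.11 and 0.53. The dim Il7r lay between −0.37 and 0.37 and Stat4 between −0.02 and 0.32. None of these 11 had an unadjusted p under 0.05 in a comparison of 2 groups on its brightest probe. Between genotypes under E2+Pg, where Il15ra had 0.53, its other probes gave 0.59 and 0.55. Their unadjusted p-values from limma were 0.0104 and 0.0263 (adjusted p = 0.189 and 0.217).

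Other genes of the pathway were read from 3 lists of ligands, further receptors and factors, and STAT target genes. Of 17 ligands tested (27 listed), 25 receptors and factors (30 listed) and 26 target genes, none was called between genotypes or in the interaction with limma. In wild-type LCs progesterone lowered Csf2, the cytokine GM-CSF (1 of 17), Stat2, a factor of the interferon response, and Csn3, a milk casein (1 of 26), while Il2rb, a chain of the IL-2 and IL-15 receptors, was called higher. Stat2 had a difference of −1.74 (standard error 0.28, adjusted p = 0.00644), from 9.96 to 11.35 with E2 to 8.72 to 9.15 with E2+Pg. Csf2 had −2.10 (adjusted p = 0.041), Csn3 −0.88 (0.0303) and Il2rb 0.72 (0.041). In C451A-ERα LCs Ifngr1, an interferon gamma receptor chain, was called higher (0.73, adjusted p = 0.0459). The medians of these lists in the 4 comparisons lay between −0.22 and 0.13, beside −0.02 to 0.04 over all genes. Of the receptors that signal through Jak2, the growth hormone receptor Ghr was at 11.06, 10.54, 8.2 and 10.52 in wild-type E2 mice L67, L50, L72 and L52 and at 8.11 to 9.16 in C451A-ERα E2 mice, a difference of −1.49 (adjusted p = 0.124), or −2.11 without L72 (6.24e-05). The prolactin receptor Prlr was at 13.03 to 14.73 and at 13.97 to 14.84, a difference of 0.82 (adjusted p = 0.272), or 1.18 without L72 (0.026). Without L72, 1038 of all 20687 genes were called in this comparison. Neither receptor was called with all mice, and both are given in addition to the called genes of the lists. Progesterone gave −1.07 for Prlr in C451A-ERα LCs (adjusted p = 0.0682).

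The labelled cell type was read from 9 marker lists. Of the markers of hormone-sensing luminal cells (10 tested), progenitors (10), pan-luminal (9), basal (11), fibroblast (8), endothelial (6), immune (14), adipocyte (4) and immediate early and dissociation genes (16), none was called between genotypes. Of all genes, only 6 under E2 and 1 under E2+Pg were called between genotypes. In C451A-ERα LCs progesterone lowered 4 hormone-sensing markers (Foxa1, Ly6a, Pgr and Prom1), with a list median of −1.11 there and −0.72 in wild-type LCs, and in wild-type LCs it lowered Csn3, listed with the progenitors, and Cd24a, listed as pan-luminal. The adipocyte markers Adipoq and Plin1 and the endothelial marker Tek were not tested, since they were above background on too few arrays.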

How the data were processed

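RNA of sorted LCs from 19 mice was measured on single-colour Agilent arrays. For each spot, the files deposited by the authors give its intensity as Agilent Feature Extraction 10.10.1.1 read it, not normalized. The authors also deposited log2 values after a filter, quantile normalization and a correction for washing bath and labeling, and these served as an alternative. Here log2 median signals were brought to common quantiles (limma 3.58.1, R 4.3.3). The 1370 spots marked as outliers were left out, no spot was saturated, and spots of 1 probe were averaged. Probes well above background on at least 4 arrays were kept (31843), and the brightest stood for its gene. Of 56605 probes, 32989 were named by accession, 8375 through a probe of the same name, and 15241 kept the name in the file, and 83 carried a member's name. Coordinates of probes are those of the files, on mm9.

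A model with 4 group means was fitted to all arrays (15 residual and 2.87 prior degrees of freedom), with two-sided p-values adjusted over all genes, and adjusted p-values come from limma. Exact permutation tests are over mice. The methods were tested on simulated data. Full values were given for members called in any comparison, the 6 with the largest difference in each comparison, Jak2 and Stat5a, which the study named from these arrays, and for the called genes of the pathway lists. Ghr and Prlr, which were not called, were given besides. The members and lists were chosen with earlier results of these data known. The alternatives tried were the processed signal, a normexp background (offset 50), other filters, slide blocks, fewer groups, array weights, the mean of probes, the value table and leaving out each mouse. A batch other than the slide was not analysed here. The number of arrays limits the precision. Protein sequences were not used here. A result on an item withheld from this text is not reported here.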

Additional observations from a re-analysis of the deposited data

Results flagged for a closer look

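In each group of 4 or 5 mice, the lowest or highest mouse was set against the rest, and a mouse was listed where its gap to the nearest other mouse took up more of the range than Dixon's 95% critical value. Chance lists about 1 in 20 groups, and 13 mice were listed over 144 groups of members.

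Wild-type E2 mouse L72 was listed for 4 members. It was low for Jak2 (10.17, others 11.07 to 11.17) and Socs2 (8.76, others 10.77 to 11.08) and high for Jak3 (8.58, others 7.67 to 7.71) and Pias3 (6.80, others 6.33 to 6.41). C451A-ERα E2+Pg mouse L18 was also listed for 4, low for Jak1 (11.88, others 12.34 to 12.47), Osmr (10.95, others 12.85 to 13.26) and Socs5 (11.37, others 12.13 to 12.43) and high for Socs2 (9.98, others 8.47 to 8.81). Wild-type E2+Pg mouse L21 was low for Il5ra (5.73, others 8.29 to 9.08) and Il6st (9.64, others 10.07 to 10.21). Wild-type E2+Pg mouse L47 was high for Socs1 (8.22, others 7.30 to 7.52) and low for Stat5a (11.03, others 11.41 to 11.54). On the second probe of Stat5a L47 was instead the highest of its group (10.41, others 9.81 to 10.2). C451A-ERα E2 mouse L4 was high for Lepr (10.31, others 8.87 to 8.93).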

How the results depend on the processing

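The count of called members depended on the processing in 4 comparisons. For genotype under E2 it was 0, and it was 10 with array weights, 3 with the authors' value table, 3 without mice L4, L27 and L18 and 0 to 6 with 1 mouse left out. For genotype under E2+Pg it was 0, and it was 5 with array weights, 5 without L4, L27 and L18 and 0 to 3 with 1 mouse left out. For progesterone in wild-type LCs it was 1, and it was 0 with the processed signal, without a filter on dim probes and with slide as a fixed or random block, 2 with the groups compared alone, with the mean of all probes, with every probe as its own feature and without L4, L27 and L18, 5 with array weights and 0 to 3 with 1 mouse left out. With the mean of all probes, 258 of all 20687 genes were called. The share over all probes tested on their own was not counted. For progesterone in C451A-ERα LCs it was 0, and it was 1 with a normexp background, with probes above background on all arrays, with array weights and with the value table, and 0 to 2 with 1 mouse left out. Of all genes, these 4 settings in that order called 486 of 20687, 588 of 15502, 700 of 20687 and 694 of 19686. The interaction called 0 members under each of these alternatives, while 1 probe of Lepr passed with every probe tested on its own and L72 left out. The settings without L4, L27 and L18 and with every probe on its own were chosen after seeing the data, and the causes of these shifts were not tested. Of the differences of single members, that of Stat5a between genotypes under E2+Pg (0.15) turned sign, to 0 with the mean of its probes (a negative value that rounds to 0) and to −0.06 without L4, L27 and L18, and it lay between −0.06 and 0.3 with 1 mouse left out, the lowest without L18. Over the other named differences and alternatives, 48 became calls and 14 lost the call, and 1004 kept direction and side of the threshold. Genes called rose from 6 to 2226 under E2 and from 1 to 2588 under E2+Pg with array weights. The labels carry no replicate numbers that groups share, and the slide was the block used to pair mice.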
